A study of Homo sapiens with 9 samples.

Results

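Transcript levels of 8 Hedgehog pathway genes were followed in IMR90 cells in which RRM2 alone, or RRM2 together with p16, was targeted by short hairpin RNAs. The genes were HHIP, PTCH1, SMO, GAS1, SUFU, GLI1, GLI2 and GLI3, matched by symbol in the authors' deposited table and by Ensembl identifier in the count data. They are 8 of 64253 gene identifiers, and all 8 were among the 16561 genes that passed the filter on low counts, with at least 12 reads in every library. HHIP was selected on its measured fall from shRRM2 to shRRM2/shp16 cells in an earlier analysis of these libraries. Its values are therefore given in every comparison as a description, with no test. The other 7 genes were listed for their place in the pathway, and each was tested within a fit of all 16561 genes.

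IMR90 cells are normal human fibroblasts from fetal lung with a finite lifespan in culture. The study had 3 groups of 3 libraries, lettered a, b and c, all from cells kept in 2% oxygen, taken at population doubling 30 and selected for 7 days with puromycin at 3 ug/mL. Control cells carried the pLKO.1 lentiviral vector, called empty in the sample labels and pLKO.1 GFP in the treatment protocol. The shRRM2 cells carried pLKO.1-shRRM2, a hairpin against the small subunit of ribonucleotide reductase, and are labelled senescent. The shRRM2/shp16 cells received that hairpin and then pLKO.1-shp16 against p16, a cell cycle inhibitor and product of CDKN2A, and are labelled as bypassing senescence. A second infection 24 hours after the first is listed for every library, control and shRRM2 included. Each target had a single hairpin and no group carried shp16 alone, so an effect of shp16 can be read only on the shRRM2 background. The labels do not say whether the lettered libraries came from separate cultures, so p-values measure only the spread between these libraries, which may be technical.

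Hedgehog ligands bind the receptor PTCH1, which otherwise holds the membrane protein SMO inactive. Active SMO, working at the primary cilium, frees the GLI transcription factors from SUFU and from processing into repressors. In the lung, the ligand SHH is made by epithelium and acts on the surrounding mesenchyme, from which fibroblasts derive. PTCH1, HHIP and GLI1 are themselves textbook transcriptional targets of the pathway, and the first 2 also restrain it by binding ligand.

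The upstream sequences of HHIP and PTCH1 are shown because these ligand-binding proteins are the pathway's feedback inhibitors and their transcripts moved in opposite directions between shRRM2 and shRRM2/shp16. Both were taken from RefSeq promoter windows on GRCh38.p14, which reach from 250 bases before to 50 bases after an annotated start, and were trimmed to bases before that start that lie in no GENCODE exon of the gene. Capitals mark the GLI recognition sequence TGGGTGGTC, which was searched on both strands (reverse strand GACCACCCA). The HHIP stretch is chr4:144645906-144646020 on the plus strand, and the PTCH1 stretch is chr9:95509267-95509516, read on the minus strand.
HHIP: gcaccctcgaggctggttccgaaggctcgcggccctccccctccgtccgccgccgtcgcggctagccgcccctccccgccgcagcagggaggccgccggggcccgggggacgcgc
PTCH1: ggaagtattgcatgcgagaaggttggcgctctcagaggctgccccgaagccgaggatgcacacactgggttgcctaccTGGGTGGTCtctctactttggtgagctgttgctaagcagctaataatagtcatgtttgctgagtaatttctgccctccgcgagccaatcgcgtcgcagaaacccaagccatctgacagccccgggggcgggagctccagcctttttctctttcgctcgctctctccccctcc
The motif's first base lies at position -172 from this PTCH1 start. Windows were present for 6 of the 8 genes (HHIP, GLI2, SMO, SUFU, GAS1 and PTCH1), 11 windows in all, and this PTCH1 window was the 1 that held the motif. PTCH1 had 5 of the windows, 4 of them without the motif, and HHIP had 1. The PTCH1 start shown lies inside the annotated gene, downstream of its outermost start. Over the whole genome 83 of 35116 windows (0.236%) held the motif, and of the other pathway genes described later 0 of 110 windows (73 genes) did. A match of letters describes the window only, and its absence says only that these letters are not in it.

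Gene-assigned counts ran from 15770895 to 24873291 per library, and the common biological coefficient of variation was 0.027. RRM2, the targeted gene, stood at 12.8% of its control level in shRRM2 (62.1 against 485 CPM, CPM being counts scaled to a common library size by TMM) and at 36.5% in shRRM2/shp16. CDKN2A was low, at 6.02, 6.5 and 4.28 CPM in control, shRRM2 and shRRM2/shp16, and its count does not separate p16 from other transcripts of the locus. Since RRM2 was itself higher in shRRM2/shp16 than in shRRM2, by 1.51 ± 0.035 (log2, SE), recovery of RRM2 and loss of p16 cannot be told apart in that comparison. All 10 fibroblast markers were expressed, with summed levels of 37900 to 39100, 40900 to 41900 and 29500 to 30100 CPM in the same order of groups. The sum of 6 epithelial markers was 23.9 to 25.2, 12 to 13.4 and 3.29 to 5.21 CPM, with KRT5, SFTPC and SCGB1A1 at 0 in every library. Its shift is mostly that of CLDN4, at 1.9 to 23.2 CPM over the libraries, with EPCAM at most 1.68 and CDH1 at most 0.803 CPM. The sum of 5 endothelial markers was 65.3 to 70.5, 67.8 to 73.0 and 115 to 124 CPM, mostly TEK, with CDH5 at no more than 1 read. That of 5 smooth muscle or pericyte markers was 323 to 341, 307 to 331 and 134 to 148 CPM, with MYH11 at no more than 8 reads, and that of 5 immune markers was 1.05 to 1.79, 3.00 to 3.30 and 2.10 to 2.38 CPM, with CD3E at 0. Some uniquely aligned reads were assigned to no gene feature, with intronic and intergenic reads not separated. Their share of uniquely aligned reads was 17.6% to 18.9% in control, 27.7% to 28.8% in shRRM2 and 23.5% to 24.4% in shRRM2/shp16. The part of these shifts in the changes below was not tested. In bulk RNA, fewer cells that express a gene and less RNA per cell cannot be told apart.

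The pathway genes did not move as a block. In shRRM2 against control GAS1, GLI1, GLI3, GLI2 and SUFU fell and PTCH1 rose, so that 5 of the 7 tested genes were lower and 1 higher at an adjusted p under 0.05, while HHIP stood 3.49-fold above control. Across all genes 60.9% passed that threshold in this comparison, 29% higher and 31.8% lower. In shRRM2/shp16 against shRRM2 GAS1, GLI1, PTCH1, SUFU and GLI3 rose and GLI2 fell (5 higher, 1 lower, background 61.1%, made up of 31.9% higher and 29.1% lower), while HHIP stood 16.8-fold lower. In shRRM2/shp16 against control PTCH1, GAS1 and SUFU rose and GLI2 and GLI3 fell (3 higher, 2 lower, background 62.4%, made up of 30% higher and 32.4% lower). These shares of called genes are 6, 6 and 5 of 7, on a background where most genes pass. The median log2 fold change of the 7 was -0.20, 0.40 and -0.03 in the 3 comparisons, against 0.002, 0.011 and 0.015 for all genes. The 3 comparisons share libraries pairwise, so they are not independent of each other.

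**Figure D1:**
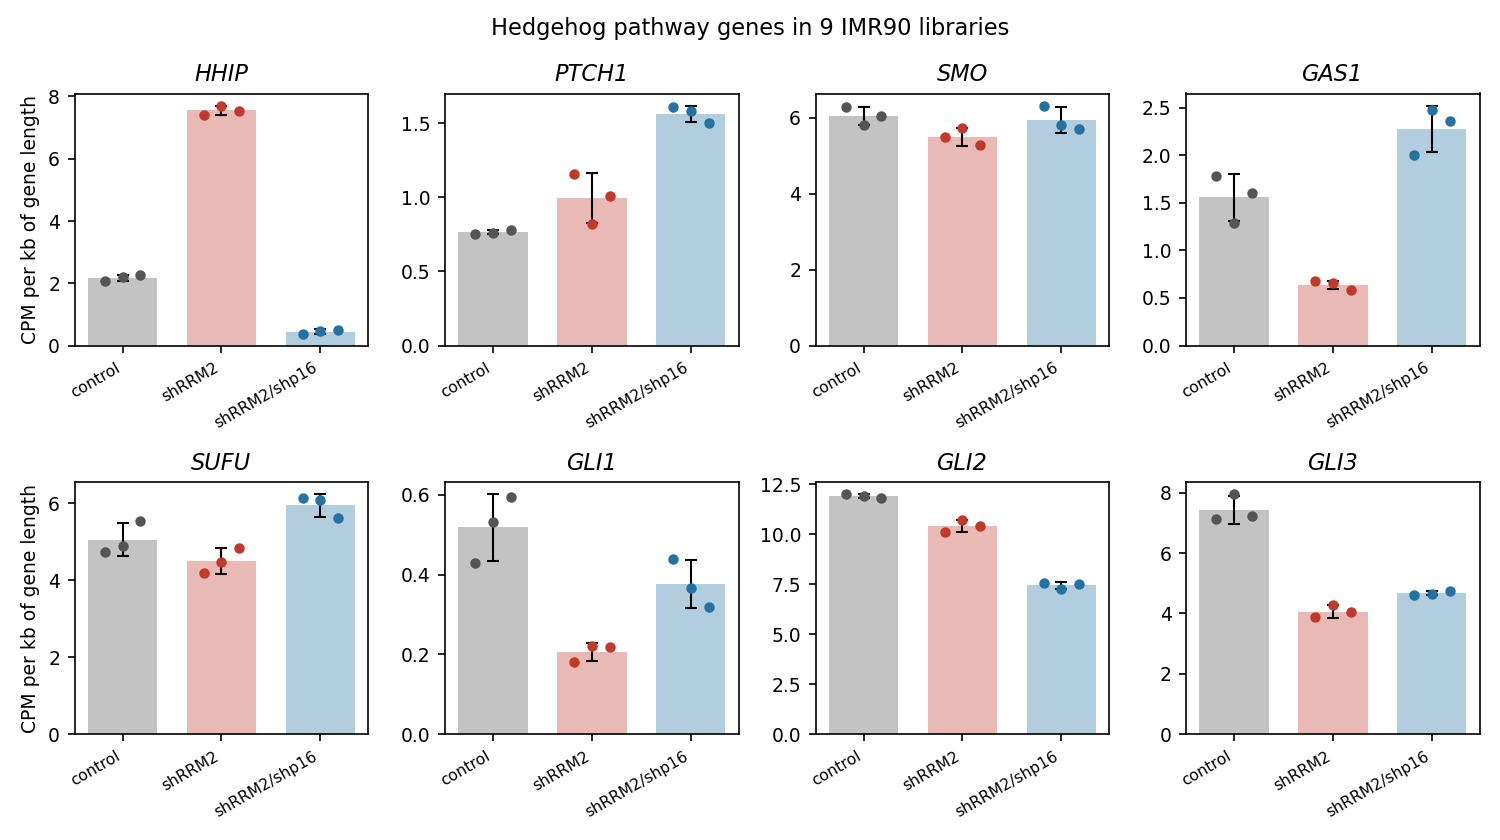
Level of each gene in CPM per kilobase of the authors' gene length, by group; bars are means, error bars are SD over 3 libraries, points are libraries, and each panel has its own axis from 0. HHIP is highest in shRRM2 and lowest in shRRM2/shp16, PTCH1 is highest in shRRM2/shp16, and GAS1 and GLI1 are lowest in shRRM2.

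HHIP (ENSG00000164161; GRCh38 chromosome 4, 144646021 to 144745271, plus strand) encodes a membrane-anchored and secreted glycoprotein that binds Hedgehog ligands and keeps them from their receptor. It was counted at 25.0, 26.4 and 27.2 CPM in control libraries a, b and c, at 89.6, 93.0 and 91.0 CPM in shRRM2 and at 4.38, 5.78 and 6.13 CPM in shRRM2/shp16. The 3 groups did not overlap, and every shRRM2 library lay above every control library and every shRRM2/shp16 library below. Even the lowest library, shRRM2/shp16 replicate a, rested on 83 reads. The means were 26.2 ± 1.12, 91.2 ± 1.72 and 5.43 ± 0.922 CPM (SD, n = 3 each).

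The fitted log2 fold change of HHIP was 1.80 between control and shRRM2. From shRRM2 to shRRM2/shp16 it was -4.07, the value on which the gene was chosen. The latter left 5.96% of the shRRM2 level and ranked 10 from the bottom of the 16561 genes. Against control the shRRM2/shp16 level was 4.8-fold lower (log2 fold change -2.26, 20.8% left). Of the 12074 exon bases of HHIP, 178 are shared with an antisense gene, HHIP-AS1, and 180 with an opposite-strand RNA gene, RF02271. Without a stated strand setting reads over those bases cannot be assigned to either gene of a pair. HHIP-AS1 was counted at 2.51 ± 0.179 CPM in control, 5.42 ± 0.955 in shRRM2 and 1.54 ± 0.128 in shRRM2/shp16 (SD, n = 3 each), the same order of groups as HHIP at a far lower level.

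PTCH1 (ENSG00000185920; chromosome 9, 95442980 to 95517057, minus strand) encodes the receptor that holds SMO inactive and is a feedback target like HHIP. It was counted at 12.5, 12.6 and 12.9 CPM in control, 19.3, 13.6 and 16.8 CPM in shRRM2 and 26.7, 26.3 and 24.9 CPM in shRRM2/shp16. The groups did not overlap and shRRM2 was the most scattered, its replicate b lying close to control. PTCH1 rose by 0.38 ± 0.09 on the log2 scale (SE) in shRRM2 against control (edgeR adjusted p 0.000321) and by a further 0.66 ± 0.08 in shRRM2/shp16 (adjusted p 1.57e-09). Against control it was 2.05-fold higher in shRRM2/shp16 (log2 fold change 1.04 ± 0.081, edgeR adjusted p 4.88e-15). PTCH1 and the antisense gene AL161729.1 share 711 exon bases. The first of these rises missed the threshold with limma on RPKM values when the shRRM2 c column, which does not match its counts, was left out (0.36, adjusted p 0.0631).

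HHIP and PTCH1 thus differed in the order of the groups. The ratio of HHIP to PTCH1 level, each per kilobase, was 2.75, 2.87 and 2.89 in control, 6.38, 9.39 and 7.46 in shRRM2, and 0.226, 0.302 and 0.338 in shRRM2/shp16. HHIP was the more abundant transcript per length in all 6 control and shRRM2 libraries, and PTCH1 in all 3 shRRM2/shp16 libraries. HHIP was selected on its fall, so this ratio is a description.

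SMO (ENSG00000128602; chromosome 7, 129188872 to 129213545, plus strand), the transducer that PTCH1 represses, changed least. It was counted at 27.1, 25.0 and 26.1 CPM in control, 23.7, 24.7 and 22.7 CPM in shRRM2 and 27.3, 25.0 and 24.6 CPM in shRRM2/shp16. The shRRM2 libraries lay below all control libraries by a small margin, and shRRM2/shp16 overlapped both groups. The log2 differences were -0.14 in shRRM2 against control (95% interval -0.30 to 0.02, edgeR adjusted p 0.0575), 0.11 in shRRM2/shp16 against shRRM2 (-0.05 to 0.27, adjusted p 0.142) and -0.03 against control (-0.18 to 0.12, adjusted p 0.691). The first came under the threshold without control replicate b (-0.17, edgeR adjusted p 0.0431), without shRRM2 replicate b (-0.17, adjusted p 0.0477) or without the low-count filter (-0.18, adjusted p 0.0275). The second did so with limma on RPKM values (0.17, adjusted p 0.0361). SMO shares 129 exon bases with the antisense gene AC011005.4.

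GAS1 (ENSG00000180447; chromosome 9, 86944363 to 86947189, minus strand) encodes a membrane-anchored co-receptor that promotes ligand binding to PTCH1 and was first known for its link to growth arrest. It was counted at 5.03, 3.63 and 4.53 CPM in control, 1.90, 1.85 and 1.66 CPM in shRRM2 and 5.65, 6.97 and 6.66 CPM in shRRM2/shp16. The reads behind these values numbered 29 to 140. The groups were apart, lowest in shRRM2 and highest in shRRM2/shp16. GAS1 fell by 1.30 ± 0.18 (log2, SE) in shRRM2 against control (edgeR adjusted p 3.21e-08) and was 3.56-fold higher in shRRM2/shp16 than in shRRM2 (1.83 ± 0.17, adjusted p 5.96e-13). It also exceeded control in shRRM2/shp16, by 0.53 ± 0.13 (edgeR adjusted p 0.000585). GAS1 had the largest increase of the 7 tested genes between shRRM2 and shRRM2/shp16, the comparison in which HHIP had its largest decrease.

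SUFU (ENSG00000107882; chromosome 10, 102503987 to 102633535, plus strand) binds GLI proteins in the cytoplasm and restrains them. It was counted at 32.6, 33.6 and 38.1 CPM in control, 28.7, 30.7 and 33.3 CPM in shRRM2 and 42.2, 41.9 and 38.5 CPM in shRRM2/shp16. The shRRM2/shp16 libraries were above all others, while control and shRRM2 overlapped. SUFU rose in shRRM2/shp16 by 0.40 ± 0.061 against shRRM2 (edgeR adjusted p 2.86e-07) and by 0.24 ± 0.059 against control (adjusted p 0.000451). Its fall in shRRM2 against control was -0.16 ± 0.063 (edgeR adjusted p 0.0262), and that call was lost with DESeq2 (adjusted p 0.0809), with limma on RPKM values (0.188) and without control replicate c (0.189), shRRM2 replicate a (0.188) or shRRM2 replicate b (0.0706).

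The GLI transcription factors followed separate courses. GLI2 (ENSG00000074047; chromosome 2, 120735623 to 120992653, plus strand), the main activator of target genes, was counted at 89.0, 87.8 and 87.6 CPM in control, 74.5, 79.3 and 76.9 CPM in shRRM2 and 55.9, 53.6 and 55.7 CPM in shRRM2/shp16. The groups were apart, with the highest level in control and the lowest in shRRM2/shp16. GLI2 fell by 0.20 ± 0.04 (log2, SE) in shRRM2 against control (edgeR adjusted p 4.67e-05) and by a further 0.48 ± 0.043 in shRRM2/shp16 (adjusted p 2.74e-13), a total of -0.68 ± 0.041 against control (adjusted p 1.1e-18). Of the 7 tested genes GLI2 alone fell in all 3 comparisons.

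GLI3 (ENSG00000106571; chromosome 7, 41960950 to 42237870, minus strand), which yields the pathway's main repressor form, was counted at 65.8, 73.5 and 66.8 CPM in control, 35.8, 39.6 and 37.3 CPM in shRRM2 and 42.7, 43.0 and 43.8 CPM in shRRM2/shp16. Both hairpin groups lay well below control, and shRRM2/shp16 a little above shRRM2 without overlap. GLI3 fell by 0.87 ± 0.051 in shRRM2 against control (edgeR adjusted p 4.65e-19) and stood -0.67 ± 0.048 from control in shRRM2/shp16 (adjusted p 3.73e-16). Its rise between the hairpin groups was 0.20 ± 0.054 (edgeR adjusted p 0.0015), and it was not called with limma on RPKM values (0.17, adjusted p 0.112).

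GLI1 (ENSG00000111087, chromosome 12, 57460135 to 57472262, plus strand), an activator whose own transcription is commonly read as a gauge of pathway output, was the scarcest of the 8 in CPM. It was counted at 1.80, 2.24 and 2.5 CPM in control, 0.762, 0.923 and 0.918 CPM in shRRM2 and 1.85, 1.54 and 1.34 CPM in shRRM2/shp16. These levels rest on 12 to 43 reads each. The shRRM2 libraries lay below all others, and control and shRRM2/shp16 overlapped. GLI1 fell by 1.30 ± 0.25 in shRRM2 against control (edgeR adjusted p 2.45e-05) and rose by 0.85 ± 0.27 in shRRM2/shp16 against shRRM2 (adjusted p 0.00579), a rise not called with limma on RPKM values (0.48, adjusted p 0.081). Against control the shRRM2/shp16 difference was -0.44 ± 0.22 (edgeR adjusted p 0.0734), and it passed without control replicate a (-0.58, adjusted p 0.0388).

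**Figure D2:**
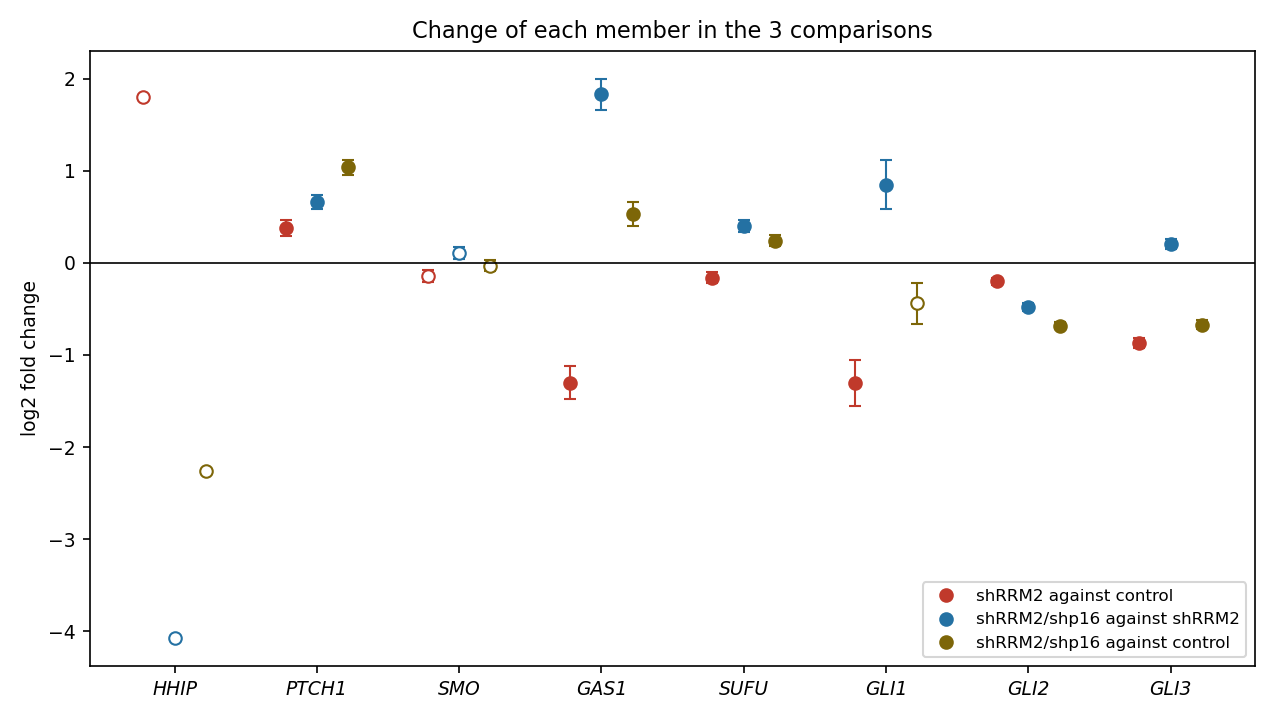
Log2 fold change of each gene in the 3 comparisons; error bars are SE, filled points passed an edgeR adjusted p of 0.05, open points did not, and HHIP is drawn open and without error bars because it was not tested. HHIP spans 1.80 to -4.07, GAS1 and GLI1 are below 0 for shRRM2 against control but above 0 for shRRM2/shp16 against shRRM2, and GLI2 is below 0 in all 3.

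Divided by the authors' gene lengths, GLI2 was the most abundant of the 8 in each group, at 11.9 ± 0.103, 10.4 ± 0.324 and 7.44 ± 0.171 CPM per kilobase in control, shRRM2 and shRRM2/shp16 (SD, n = 3). In control GLI3, SMO, SUFU, HHIP, GAS1, PTCH1 and GLI1 followed in that order, from 7.44 ± 0.454 for GLI3 to 0.519 ± 0.0841 for GLI1. HHIP stood between SUFU and GAS1 in control at 2.17 ± 0.0924, came behind only GLI2 in shRRM2 at 7.56 ± 0.142, and stood next to last in shRRM2/shp16 at 0.450 ± 0.0764, where its libraries overlapped those of GLI1 (0.376 ± 0.0605). SUFU and GLI3 were neighbours with overlapping libraries in shRRM2, as were SUFU and SMO in shRRM2/shp16, and their order there is not resolved. No other neighbours overlapped. The order was not the same in the authors' deposited FPKM values. There, in shRRM2, HHIP (36.8) stood above GLI2 (29.5), and GLI1 (0.963) above GAS1 (0.584). In shRRM2/shp16 PTCH1 (15.5) came behind only GLI2 (21.7).

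The makeup of the GLI family shifted in shRRM2 and was back near control in shRRM2/shp16. Of the summed level per kilobase of the 3 GLI genes, GLI2 made up 60.0% ± 1.6 in control, 70.9% ± 0.44 in shRRM2 and 59.6% ± 0.44 in shRRM2/shp16 (SD, n = 3). GLI3 made up 37.4% ± 1.5, 27.7% ± 0.38 and 37.4% ± 0.7, and GLI1 the small remainder. All 3 shRRM2 libraries had a higher GLI2 share than any other library, a separation wider than the replicate spread that was not tested further. The sum itself fell from 19.9 ± 0.43 in control to 14.7 ± 0.55 in shRRM2 and 12.5 ± 0.2 CPM per kilobase in shRRM2/shp16, so the control-like proportions in shRRM2/shp16 came at a lower total.

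The rest of the pathway was read from a list of 100 other genes by role, of which 92 passed the low-count filter. Among ligands, SHH (ENSG00000164690; chromosome 7, 155799986 to 155812273, minus strand) had 3, 9 and 2 reads in control, 0, 0 and 2 in shRRM2, and 32, 41 and 42 in shRRM2/shp16. Every shRRM2/shp16 library lay above every other library, at 2.00 ± 0.286 CPM against 0.249 ± 0.22 in control. The ratio of shRRM2/shp16 to control was 8.35 (95% interval 4.78 to 15.7, counting error only, 115 against 14 reads). The ratio to shRRM2 was 50.4 (13.6 to 421, 115 against 2 reads). Between control and shRRM2 the ratio was 6.04 (1.39 to 54.8, 14 against 2 reads). Of those 14 control reads, 9 came from replicate b, while control c and shRRM2 c had 2 reads each. The interval leaves out that scatter between libraries, so no difference between control and shRRM2 is read from it. SHH passed the low-count filter only through the shRRM2/shp16 libraries, where it is high, so no p is given for it. SHH was a scarce transcript throughout, and the ligands IHH and DHH had at most 1 and 4 reads in any library, at or about the 3-read floor of 0.126 to 0.190 CPM. PCR duplicates are not marked by molecular identifiers, so these intervals cover counting error only.

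SCUBE3, a secreted protein of a family that aids ligand release, was 24.0 ± 0.598, 47.8 ± 1.36 and 12 ± 0.829 CPM in control, shRRM2 and shRRM2/shp16 (SD, n = 3), an order of groups shared with HHIP. It rose by 1 (log2) in shRRM2 against control (edgeR adjusted p 3.11e-19) and fell by 2.00 in shRRM2/shp16 against shRRM2 (adjusted p 1.8e-28). Of the 6 tested genes for ligands and their release, 2 rose and 2 fell in shRRM2 against control. In shRRM2/shp16, 1 rose and 3 fell against shRRM2, and 2 rose and 2 fell against control. That is 66.7% called in each comparison, against 60.9%, 61.1% and 62.4% of all genes. SHH is counted among the first falls, is the 1 rise against shRRM2 and is among the rises against control. These counts therefore depend in part on the filter.

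Other genes of the receptor level moved to different degrees. BOC, a cell-surface co-receptor, was 13.6 ± 1.01, 11.5 ± 0.347 and 14.6 ± 1.41 CPM in the 3 groups, a fall of 0.24 (edgeR adjusted p 0.0192) and then a rise of 0.34 (adjusted p 0.000929). Its partner CDON was 7.10 ± 0.51, 6.49 ± 1.38 and 7.22 ± 0.126 CPM and passed in no comparison (edgeR adjusted p 0.279 to 0.903). GPC5, a cell-surface glypican, and ARRB2, a beta-arrestin, moved more and were singled out after their values were seen. GPC5 was 4.83 ± 0.745, 6.18 ± 0.222 and 11 ± 0.363 CPM in control, shRRM2 and shRRM2/shp16, a rise of 1.17 ± 0.11 from control to shRRM2/shp16 (edgeR adjusted p 9.77e-13). ARRB2 was 7.74 ± 0.632, 3.88 ± 0.306 and 5.09 ± 0.341 CPM, a fall of 0.99 ± 0.13 in shRRM2 against control (edgeR adjusted p 7.43e-09). Over the 14 tested genes at the receptor level, 6 rose and 5 fell in shRRM2 against control, 6 rose and 3 fell in shRRM2/shp16 against shRRM2, and 5 rose and 3 fell in shRRM2/shp16 against control (78.6%, 64.3% and 57.1% called, against 60.9%, 61.1% and 62.4% of all genes). KIF7, a ciliary kinesin that acts on GLI proteins, fell by 0.26 in shRRM2 against control (edgeR adjusted p 0.00184). Among the 19 cytoplasmic regulators 5 rose and 8 fell in that comparison (68.4% called, against 60.9% of all genes). None of them changed 2-fold in any comparison.

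Among 30 tested genes of the primary cilium, the organelle where the pathway signals, 8 rose and 10 fell in shRRM2 against control, 13 rose and 6 fell in shRRM2/shp16 against shRRM2, and 15 rose and 8 fell in shRRM2/shp16 against control. That is 60%, 63.3% and 76.7% called, against 60.9%, 61.1% and 62.4% of all genes. Their median log2 fold changes were -0.02, 0.12 and 0.19, against 0.002, 0.011 and 0.015 for all genes. WDR35, a subunit of the intraflagellar transport machinery, was 18.5, 20.8 and 17.6 CPM in control, 15.9, 13.6 and 15.1 CPM in shRRM2 and 53.0, 57.2 and 54.6 CPM in shRRM2/shp16. The shRRM2/shp16 libraries stood far above the rest, by 1.89 ± 0.065 against shRRM2 (edgeR adjusted p 1.88e-27) and 1.54 ± 0.061 against control (adjusted p 1.92e-25).

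Commonly cited transcriptional targets went in both directions. Of 23 tested, 8 rose and 12 fell in shRRM2 against control, 10 rose and 9 fell in shRRM2/shp16 against shRRM2, and 8 rose and 11 fell in shRRM2/shp16 against control. The shares called were 87%, 82.6% and 82.6%, beside 60.9%, 61.1% and 62.4% of all genes. FOXF1, a forkhead factor of lung mesenchyme, was 335 ± 19.2, 254 ± 8.48 and 512 ± 13.8 CPM in control, shRRM2 and shRRM2/shp16, a fall of 0.40 (edgeR adjusted p 5.37e-14) followed by a rise of 1.01 (adjusted p 1.77e-28). BMP4, a secreted growth factor, had that order too at 9.18 ± 0.989, 5.86 ± 0.765 and 20.4 ± 0.598 CPM, as did PTHLH, the parathyroid hormone-related protein, at 4.25 ± 0.88, 3.14 ± 0.4 and 12.3 ± 0.43 CPM. For PTHLH control and shRRM2 overlapped. BMP2, by contrast, rose at each step, from 9.15 ± 0.805 to 35 ± 1.68 and 92.9 ± 3.23 CPM.

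SFRP1, CCND1 and CCND2 had the order of HHIP, highest in shRRM2 and lowest in shRRM2/shp16. The secreted Wnt antagonist SFRP1 was 1350 ± 31.6, 2490 ± 29.3 and 774 ± 4.97 CPM in control, shRRM2 and shRRM2/shp16, and the D-type cyclin CCND1 was 1430 ± 56.1, 1970 ± 31.1 and 714 ± 9.64 CPM. CCND2, also a D-type cyclin, was 44.4 ± 1.25, 126 ± 2.49 and 36.7 ± 0.941 CPM, and all 3 genes passed in all 3 comparisons. The Notch ligand JAG2 was scarce and lowest in control, at 0.614 ± 0.0497, 1.69 ± 0.247 and 0.880 ± 0.209 CPM, and did not pass against control in shRRM2/shp16 (edgeR adjusted p 0.16). FOXM1, a cell cycle transcription factor, fell from 240 ± 5.63 CPM in control to 77.2 ± 4.07 in shRRM2 and stood at 87.1 ± 0.243 in shRRM2/shp16. OSR1, a mesenchymal zinc finger factor, fell at each step from 34.4 ± 1.31 to 24.6 ± 0.845 and 11.5 ± 0.562 CPM. BOC, CDON, KIF7, CCND1, CCND2, FOXM1, JAG2 and PTHLH share exon bases with neighbouring annotated genes (2831 bases for CDON and VSIG10L2), so part of their counts is uncertain.

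Over the whole list 71.7%, 67.4% and 71.7% of the 92 tested genes were called in the 3 comparisons in the order given above, with median log2 fold changes of -0.01, 0.08 and 0.02. SHH is among the called genes in all 3 shares, although no p is given for it. The corresponding shares over all genes were 60.9%, 61.1% and 62.4%, and nothing particular to the list is read from the difference.

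**Figure D3:**
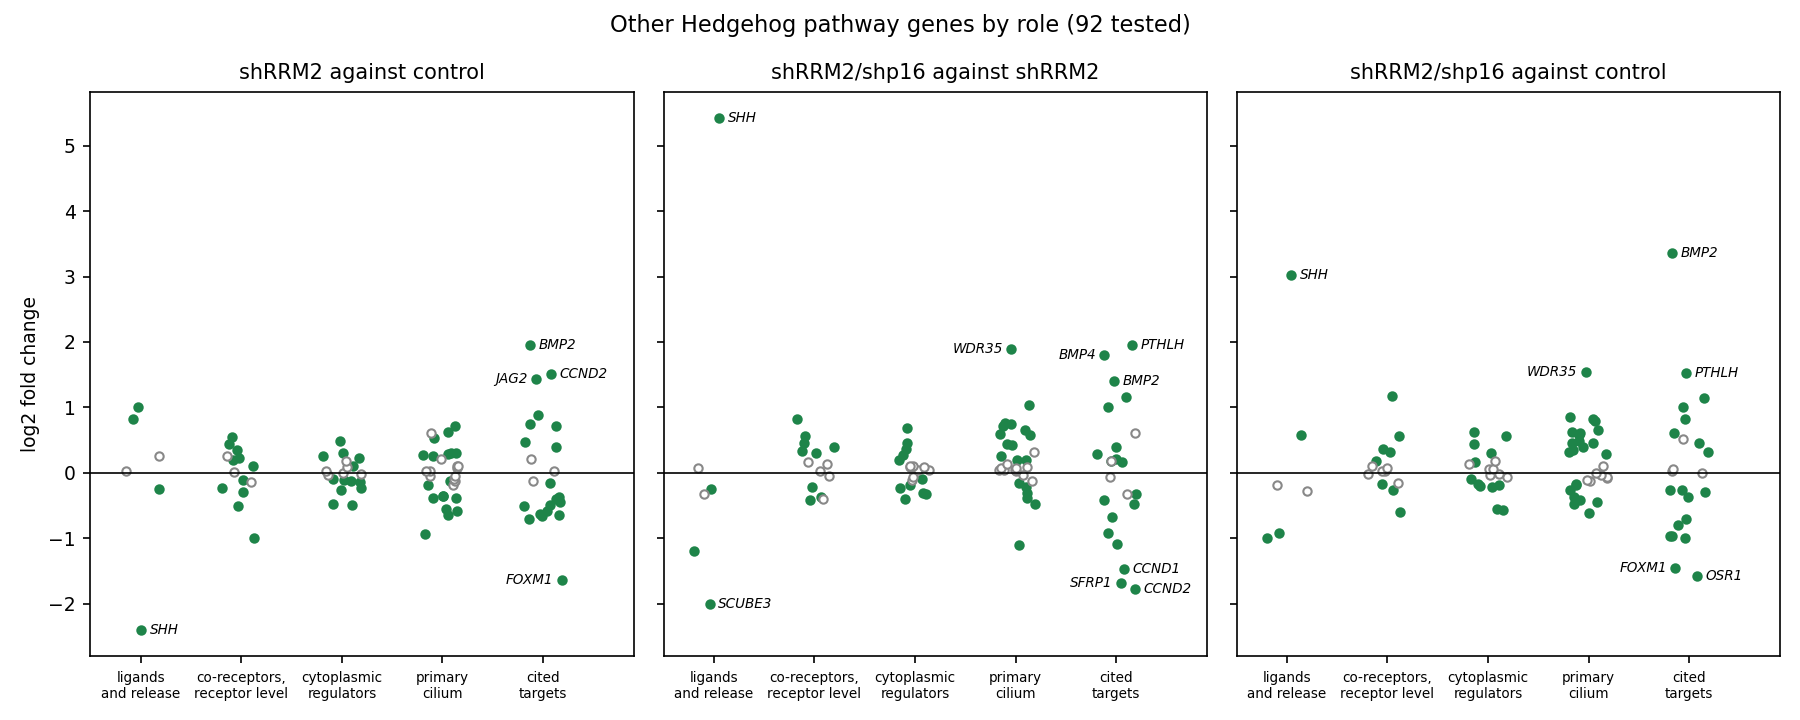
Log2 fold change of the 92 tested pathway genes other than the 8 described first, by role, in the 3 comparisons; each point is a gene, filled where the edgeR adjusted p was under 0.05, with sideways scatter for legibility only. Each role holds genes on both sides of 0, and SHH, BMP2, WDR35 and PTHLH lie highest in shRRM2/shp16 against control. SHH values are fitted on few reads, and its points are drawn filled although no p is given for it.

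The genes whose profile lay nearest to that of HHIP were sought among 11300 tested genes with a symbol and a mean log2 CPM of at least 2, by the root mean square difference of log2 CPM centred on the mean of the 9 libraries. The 5 nearest were PSG4 (0.204), FMN1 (0.393), COL11A1 (0.451), SH2D5 (0.46) and RP11-29G8.3 (0.492), while the median over all eligible genes was 1.69. PSG4, a pregnancy-specific glycoprotein gene of a near-identical family whose reads may be split between copies, was 13.2 ± 0.936, 35.1 ± 1.88 and 2.01 ± 0.141 CPM in control, shRRM2 and shRRM2/shp16. FMN1, a formin that nucleates actin, was 169 ± 4.25, 354 ± 10.8 and 38.4 ± 1.63 CPM. COL11A1, a fibrillar collagen chain, was 66.3 ± 1.89, 159 ± 2.8 and 20.1 ± 1.19 CPM. None of the 5 is one of the listed pathway genes. These values describe likeness over 9 libraries in 3 groups and were picked for it, and RP11-29G8.3 shares exon bases with LMO7 (1283) and UCHL3 (580).

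**Figure D4:**
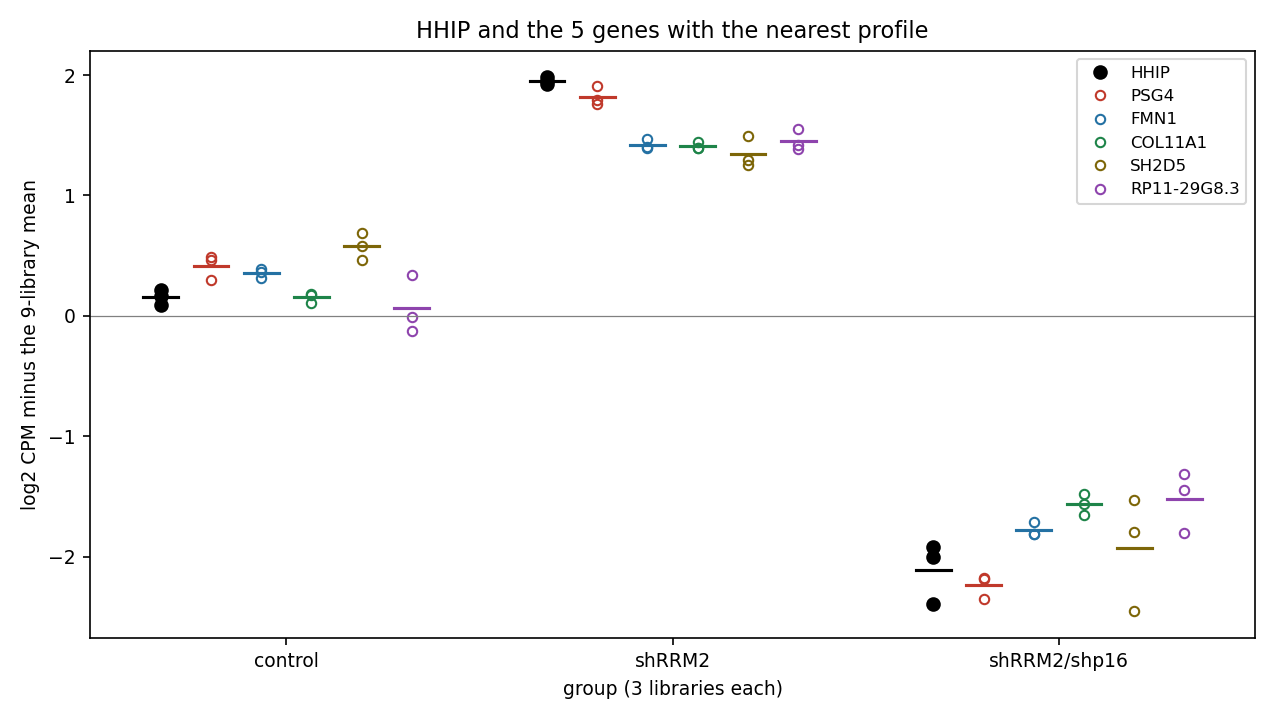
Log2 CPM minus the 9-library mean for HHIP and the 5 genes nearest to it; points are libraries and short bars are group means. All 6 genes are highest in shRRM2 and lowest in shRRM2/shp16, with HHIP the highest of the 6 in shRRM2.

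The authors' deposited table compares shRRM2/shp16 with shRRM2 only. In the authors' deposited table HHIP was 36.8 FPKM in shRRM2 and 2.43 FPKM in shRRM2/shp16, a log2 fold change of -3.92, GAS1 had 0.584 and 2.09 FPKM with a log2 fold change of 1.84 (q 0.000444), and SUFU had a log2 fold change of 0.29 (q 0.0045). In the authors' deposited table the other 5 did not reach significance, with q-values of 0.0826 for PTCH1, 0.161 for GLI2, 0.538 for SMO, 0.699 for GLI1 and 0.937 for GLI3. In the authors' deposited table GLI3 changed by -0.04, of opposite sign to the 0.20 obtained from the counts.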

How the data were processed

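RNA from 9 IMR90 libraries was measured by RNA sequencing; libraries were stranded and ribosomal RNA was depleted, per the labels' protocols. The authors deposited a raw count of reads for every Ensembl gene and library. Tally rows without a gene entered neither library sizes nor tests. Of uniquely aligned reads, 17.6% to 28.8% were assigned to no gene feature and 3.74% to 6.02% were ambiguous. The authors also deposited a comparison of shRRM2/shp16 with shRRM2, and log2 RPKM values as log2(x + 1). There x was found from the counts to be reads per base scaled to depth. That deposited comparison holds FPKM values, a log2 fold change, a test statistic (a score, not used), p-values and q-values. Of the RPKM columns 8 match the counts; that of shRRM2 replicate c matches for 9.92% of genes (2% tolerance). TopHat2 2.0.9, Cufflinks 2.0.2, Cuffdiff and GRCh38 are named in the submitters' processing notes. The names of the deposited count files point to HTSeq; its version and strand setting and the annotation release are not given in the sources used here.

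Symbols came from the authors' table (29 were replaced by numbers there), and positions and exon overlaps from GENCODE release 29. The test was that of edgeR 4.0.16 under R 4.3.3: filterByExpr with groups (16561 genes, 99.8% of counts), TMM, and 1 quasi-likelihood fit of all 9 libraries with 6 residual degrees of freedom. Tests were two-sided, with Benjamini-Hochberg adjustment over all tested genes of a comparison. Depth was 15770895 to 24873291 counts per library. CPM values are counts over the TMM-scaled library size, given as mean ± SD over 3 libraries.

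The 8 genes, the list of 100 pathway genes and the marker lists were chosen with earlier results of these data known. Named from the list are SHH, IHH, DHH, CDON, BOC, KIF7 and FOXF1, plus the 12 largest changes of at least 2-fold past the threshold; a further gene of that rule is not reported here. The scripts were tested on simulated counts. Alternatives were DESeq2 1.42.0, RLE size factors, only the 6 libraries compared, a minimum of 10 counts per sample, no low-count filter, a replicate block, limma 3.58.1 on log2 RPKM as deposited or on RPKM with a pseudocount of 0.1, and leaving out each replicate. A further one, limma without the mismatching column, was chosen after seeing the data.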

Additional observations from a re-analysis of the deposited data

How the results depend on the processing

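No gene of the 8 reversed a called direction under any alternative run. The number of the 7 tested genes past the threshold was 6, 6 and 5 for shRRM2 against control, shRRM2/shp16 against shRRM2 and shRRM2/shp16 against control. It ranged over 4 to 7, 4 to 6 and 5 to 6 across the alternatives. For all genes the numbers were 10079, 10116 and 10339, and leaving out a replicate gave 9459 to 9672, 9520 to 9690 and 9744 to 9987. The lowest numbers, 7515, 8534 and 9133, came from limma on the deposited log2 RPKM scale; the cause was not tested. Same-lettered libraries did not deviate together (r from -0.02 to 0.049 over 9 pairs, and 3 of 9 libraries correlated best with their own letter). A replicate block gave 10101, 10134 and 10388 genes and the same 6, 6 and 5 counts among the 7. The log2 fold change of HHIP ranged over 1.51 to 1.84, -4.16 to -3.47 and -2.35 to -1.96, without the deposited log2 scale, whose differences are not fold changes. On that deposited scale the GLI1 and GLI3 rises in shRRM2/shp16 against shRRM2 were not called (adjusted p 0.118 and 0.216), nor was the SUFU fall in shRRM2 (0.267). The SUFU fall was also lost with at least 10 counts in every sample (0.0696) and with limma on RPKM without the mismatching column (0.0886). The SMO difference between shRRM2/shp16 and control, never called, ranged over -0.07 to 0.075. Depth limits GLI1 (12 reads at least), SHH and JAG2 most.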
